A study of Bos taurus with 8 samples.

Results

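The genes described here are 42 bovine genes that make up the main enzymatic defences against reactive oxygen and reactive chemicals: superoxide dismutases and catalase, glutathione peroxidases, peroxiredoxins, the thioredoxin and glutaredoxin systems, the enzymes that make and recycle glutathione, the glutathione transferases, and the sensor and regulator KEAP1 and NRF2, listed with NQO1 and both heme oxygenases. They were chosen by symbol, with older synonyms counted, from the 15204 genes that the array annotation names, and they are represented by 78 probes. Of these probes 64 lay above background by the filter used, and 37 of the 42 genes had at least 1 such probe. The remaining 5 genes, GCLC, GPX3, GPX7, GSTM3 and NQO1, were too dim to be measured. Of the 37 genes, 33 passed the filter in both breeds. The filter was passed through Jersey alone by HMOX1 and GPX8 and through Holstein alone by SOD3 and GSS, each time the breed with the higher mean. The filter thus favoured the direction of these 4 genes, and counts that hold them are descriptions.

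Embryos of Holstein and Jersey cows, collected in vivo by flushing the uterus on day 6, were hybridised against each other on 8 two-colour arrays of the EmbryoGENE bovine design. The submitters describe Holstein embryos as withstanding cryopreservation well and Jersey embryos as performing poorly once thawed. Donors of both breeds were treated alike, with aspiration of follicles over 8 mm, superovulation with FSH (400 mg in all), 500 µg doses of a prostaglandin F2α analogue and insemination with mixed semen. Holstein RNA carried Cy5 on 4 arrays and Jersey RNA carried it on the other 4, and 2 slides of 4 arrays were used. RNA from a few cells had to be amplified in 2 rounds before labelling. How many embryos or donors each replicate holds is not given in the sources used here, so p-values measure the spread between these samples, which may be technical. The data are 4 dye-swap pairs, each averaged over both dye orientations, and a ratio is log2(Holstein / Jersey), positive where Holstein is higher. Whole embryos were measured, so fewer cells of a type and less RNA per cell cannot be told apart.

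Superoxide dismutases turn superoxide into hydrogen peroxide, which catalase, glutathione peroxidases and peroxiredoxins then reduce to water. Peroxiredoxins draw their electrons from thioredoxin and glutathione peroxidases from glutathione, and both carriers are recharged by reductases that use NADPH. Glutathione transferases attach glutathione to electrophiles or use it to reduce other molecules, and the transcription factor NRF2, held down by KEAP1, raises many of these genes under oxidative stress. Early embryos are sensitive to oxidation, and freezing and thawing are known sources of it.

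No probe on the array passed the adjusted threshold on pair means, a call rate of 0% over 32129 probes, and the smallest adjusted p of limma with Benjamini-Hochberg adjustment was 0.0678. Before adjustment, 4483 probes (14%) had a p under 0.05. A second fit, which keeps the 8 arrays separate and treats the pair as a random block, passed 1209 probes at the adjusted threshold. It uses the same arrays and 1 within-pair correlation of 0.31 for every probe, so it is no separate support. The results below are therefore descriptions of size, direction and repeatability, and none of the members' differences passed the adjusted threshold on pair means. Each gene is represented by its brightest probe unless another is mentioned.

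Of the 37 genes measured, 14 averaged higher in Holstein and 23 averaged higher in Jersey. The share higher in Jersey was 62.2%, against 47.3% of all 12338 named genes, and the median was -0.08, against 0.01 for the named genes. When arrays were centred on their medians in place of the loess step, this split turned to 19 higher in Holstein and 18 higher in Jersey, with a median of 0.01. Before adjustment 9 of the 37 genes (24.3%) had a p under 0.05, against 15.9% of named genes. Of these 9, SOD2, NFE2L2, PRDX3 and CAT were higher in Holstein, a direction called for 8.46% of named genes. GSTO1, GSTZ1, PRDX4 and TXN2 were higher in Jersey, a direction called for 7.41% of named genes. The ninth, HMOX1, was also higher in Jersey but passed the filter through Jersey alone. Among the 33 genes that passed the filter in both breeds, 8 (24.2%) had a p under 0.05, against 17.2% of named genes that did so. With the pair as a random block, 3 members passed the adjusted threshold, SOD2 higher in Holstein and GSTO1 and GSTZ1 higher in Jersey, against 4.46% of named genes. The same direction in all 4 pairs was found for 10 of the 37 members, against 22.9% of named genes. The same direction on all 8 arrays was found for 4 of the 37, GSTO1, SOD2, GSTZ1 and HMOX1, against 5.9%. Of the 33 genes that passed in both breeds, 3 had 1 direction on all 8 arrays, against 6.52% of such named genes. In all 4 pairs 9 of the 33 had 1 direction. The share of such named genes is not given here for the 4 pairs, so these 9 are not read as an excess.

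**Figure D1:**
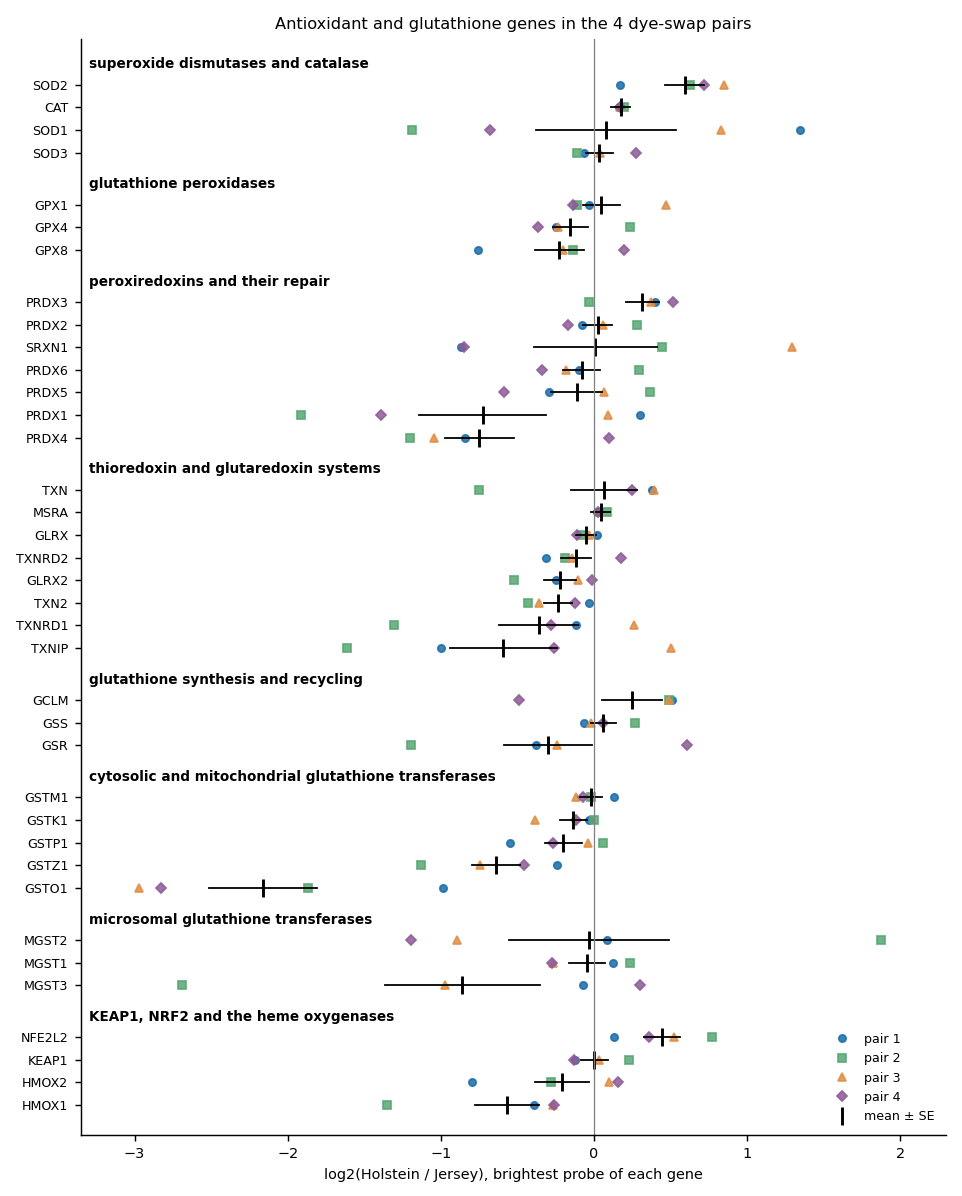
Log2(Holstein / Jersey) of the 37 measured genes, grouped by enzyme family, with 1 symbol for each of the 4 dye-swap pairs and a black bar for the mean with its moderated SE (n = 4 pairs). GSTO1 lies furthest to the left with all pairs below 0, SOD2 has all pairs above 0, and MGST2, MGST3, SOD1 and PRDX1 have pairs on both sides of 0 that are widely apart.

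The superoxide dismutases and catalase averaged higher in Holstein in 4 of 4 cases, with means between 0.03 and 0.59. SOD3 passed the filter through Holstein alone. The split was 3 to 1 with plain background subtraction, with no background correction, with median foreground and in the deposited value table. SOD2 on chromosome 9 encodes the manganese superoxide dismutase of the mitochondrial matrix. Its log2 intensity in pairs 1 to 4 was 14.23, 14.34, 14.08 and 14.27 in Holstein embryos, against 14.05, 13.71, 13.23 and 13.55 in Jersey embryos. The lowest Holstein value lay just above the highest Jersey value, so the breeds did not overlap, and the difference was smallest in pair 1. Log2(Holstein / Jersey) was 0.17, 0.62, 0.85 and 0.72 in the 4 pairs, with a mean of 0.59 ± 0.13 (SE, n = 4 pairs), which is 1.51-fold higher in Holstein. The sign was the same on 8 of 8 arrays, and the limma adjusted p was 0.173 on pair means and 0.0259 with the pair as a random block.

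CAT, the peroxisomal catalase gene on chromosome 15, had the most even pair means of all members. Its ratio was 0.16, 0.19, 0.17 and 0.17 in the 4 pairs, a mean of 0.17 ± 0.06 (SE, n = 4 pairs), or 1.13-fold higher in Holstein. Its SD between pairs was 0.014, a value undercut by 0.041% of named genes. Once the mean dye effect was removed, its arrays lay on average 0.139 from their pair's mean. That distance is larger than the SD between pairs, so the evenness is finer than the arrays themselves agreed. Log2 intensity was 12.44, 12.50, 12.58 and 12.39 in Holstein embryos and 12.28, 12.31, 12.41 and 12.22 in Jersey embryos. Holstein was higher within each pair, while the ranges of the breeds overlapped. The 2 dye orientations of CAT were far apart, however, with a mean of -0.06 on arrays with Holstein in Cy5 and 0.41 on arrays with Jersey in Cy5, so that the sign agreed on 5 of 8 arrays. The limma adjusted p was 0.307 on pair means, and the ratio was 0.02 with median foreground.

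SOD1, the cytosolic copper-zinc dismutase on chromosome 1, averaged 0.08 ± 0.46 (SE, n = 4 pairs), and its pairs disagreed. Its ratio was 1.35, -1.19, 0.83 and -0.68 in pairs 1 to 4. Holstein was higher in pairs 1 and 3 and Jersey in pairs 2 and 4, each time in both dye orientations. The second SOD1 probe gave 1.00, -1.06, 0.78 and -0.71, the same order. SOD3, the secreted dismutase on chromosome 6, was near the background, above it on 4 of 8 arrays in Holstein and 3 of 8 in Jersey, and its ratio of 0.03 ± 0.09 (SE, n = 4 pairs) had opposite signs in the 2 dye orientations, -0.48 and 0.54.

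Of the glutathione peroxidases, which use glutathione to reduce peroxides, GPX1, GPX4 and GPX8 were measured, and none had an unadjusted p under 0.05. GPX1, the cytosolic selenoenzyme on chromosome 22, averaged 0.05. Its pairs 1, 2 and 4 lay between -0.14 and -0.03, while pair 3 stood at 0.47. GPX4 on chromosome 7, which reduces lipid hydroperoxides within membranes, gave -0.25, 0.23, -0.24 and -0.37 and averaged -0.15. Pair 2 was the only one with GPX4 higher in Holstein. GPX8, an endoplasmic reticulum peroxidase encoded on chromosome 20, averaged -0.23 and was dim, above background on 3 of 8 arrays in Holstein and 5 of 8 in Jersey.

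The peroxiredoxins and SRXN1 averaged higher in Holstein in 3 cases and higher in Jersey in 4, a split that turned to 5 and 2 with median centring. PRDX3 on chromosome 26, the mitochondrial peroxiredoxin, had a log2 intensity of 11.83, 11.38, 11.62 and 11.80 in Holstein embryos, against 11.43, 11.41, 11.25 and 11.29 in Jersey embryos. Holstein was higher in pairs 1, 3 and 4, and pair 2 showed almost no difference. The ratio averaged 0.31 ± 0.11 (SE, n = 4 pairs), 1.24-fold higher in Holstein, and the limma adjusted p was 0.301. Its mean was 0.01 on arrays with Holstein in Cy5 and 0.61 on arrays with Jersey in Cy5.

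PRDX4 on the X chromosome encodes the peroxiredoxin of the endoplasmic reticulum, where it reduces the peroxide formed while disulfide bonds are made. Its log2 intensity in pairs 1 to 4 was 12.30, 12.04, 12.43 and 13.13 in Holstein embryos, against 13.14, 13.24, 13.47 and 13.04 in Jersey embryos. Jersey was higher in pairs 1 to 3, and pair 4 was slightly the other way, which made the breeds overlap. Ratios of -0.84, -1.20, -1.05 and 0.10 gave a mean of -0.75 ± 0.23 (SE, n = 4 pairs), 1.68-fold higher in Jersey, with the same sign on 7 of 8 arrays. The limma adjusted p was 0.253 on pair means and 0.0622 with the pair as a random block.

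Markers of embryo sex moved in the same direction as PRDX4. XIST, the RNA that silences one X chromosome in female cells, had ratios of -3.22, -3.43, -3.52 and -1.56 in the 4 pairs. The 547 X-linked probes had medians of -0.16, -0.15, -0.19 and -0.06 in the same pairs. All of these were nearest to 0 in pair 4, the pair in which PRDX4 was not lower in Holstein. Their part in the PRDX4 result was not tested.

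PRDX1 on chromosome 3, a cytosolic peroxiredoxin, averaged -0.73 ± 0.42 (SE, n = 4 pairs), yet its pairs gave 0.30, -1.91, 0.09 and -1.39. Jersey was higher in pairs 2 and 4, and pairs 1 and 3 were close to 0. Without pair 2 the mean was -0.33, and without pair 4 it was -0.51. SRXN1 on chromosome 13, the sulfiredoxin that repairs over-oxidised peroxiredoxins, averaged 0.01 ± 0.40 (SE, n = 4 pairs) from pairs of -0.87, 0.44, 1.30 and -0.85, so it was high in Holstein in the middle pairs and high in Jersey in the outer ones. Its second probe gave 0.25, 0.19, 0.58 and -0.04 and did not repeat the negative values of pair 1.

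PRDX2 on chromosome 7, the cytosolic peroxiredoxin known from red cells, averaged 0.02, and its second probe averaged -0.20. PRDX5 on chromosome 29, found in mitochondria and peroxisomes, averaged -0.11, and its second probe averaged -0.32. PRDX6 on chromosome 16, which works with glutathione and not with thioredoxin, had 5 probes with means between -0.17 and 0.06. In all 5 probes of PRDX6, pair 2 was the highest and pair 4 or pair 1 the lowest, so the probes agreed on the pairs while averaging to little.

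**Figure D2:**
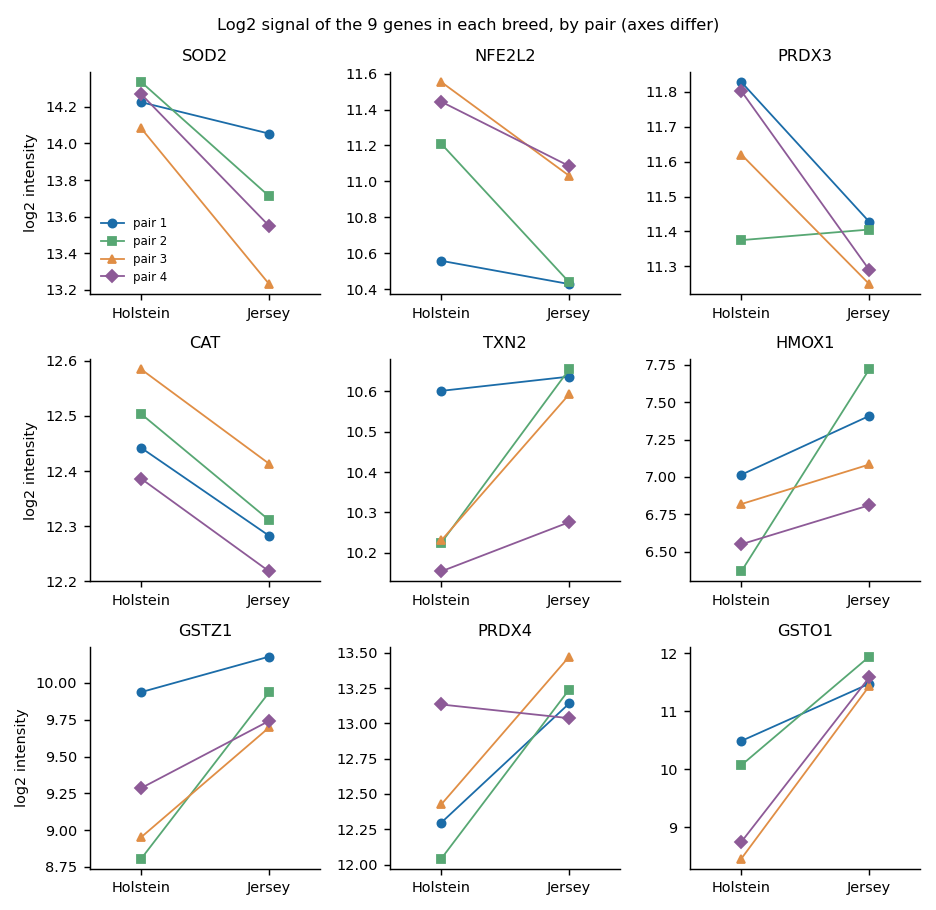
Log2 intensity of the 9 genes with an unadjusted p under 0.05, Holstein on the left and Jersey on the right of each panel, with a line for each of the 4 pairs and axes that differ between panels. SOD2, NFE2L2, CAT and, in 3 of 4 pairs, PRDX3 slope down towards Jersey, and TXN2, HMOX1, GSTZ1, GSTO1 and, in 3 of 4 pairs, PRDX4 slope up.

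The thioredoxin and glutaredoxin genes, which pass electrons from NADPH to disulfides, averaged higher in Jersey in 6 of 8 cases, with means between -0.59 and 0.07, and in 5 of 8 with median centring. TXN2 on chromosome 5, the mitochondrial thioredoxin that serves PRDX3, had a log2 intensity of 10.60, 10.22, 10.23 and 10.15 in Holstein embryos and 10.64, 10.65, 10.59 and 10.28 in Jersey embryos. Jersey was higher in every pair, although the breeds overlapped and pair 1 showed next to no difference. Ratios of -0.04, -0.43, -0.36 and -0.12 averaged -0.24 ± 0.09 (SE, n = 4 pairs), 1.18-fold higher in Jersey, with a limma adjusted p of 0.355. The orientations of TXN2 opposed each other, with -0.71 where Holstein carried Cy5 and 0.24 where Jersey did. All 6 kept probes of TXN2 averaged below 0, from -0.30 to -0.11.

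TXNIP on chromosome 3, the inhibitor of thioredoxin that also restrains glucose uptake, averaged -0.59 ± 0.35 (SE, n = 4 pairs). Its ratio was -1.0 and -1.61 in the pairs of slide 1 and 0.50 and -0.26 in those of slide 2. The mean without pair 2 was -0.26, and without pair 3 it was -0.96. TXNRD1 on chromosome 5, the cytosolic selenoenzyme that recharges thioredoxin, averaged -0.36 ± 0.26 (SE, n = 4 pairs), with pair 2 at -1.31 and the others between -0.28 and 0.26. Without pair 2 its mean was -0.05, and without pair 3 it was -0.57. Its second probe ran in the same order of pairs with a smaller span, from -0.42 to 0.13.

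TXN on chromosome 8, the cytosolic thioredoxin, gave 0.38, -0.75, 0.39 and 0.25. Holstein was higher in 3 pairs, and pair 2 went the other way, leaving a mean of 0.07. TXNRD2 on chromosome 17, the mitochondrial reductase, averaged -0.12. GLRX2 on chromosome 16, the mitochondrial glutaredoxin, averaged -0.22 with all pairs below 0. GLRX on chromosome 7, the cytosolic glutaredoxin, was one of the steadiest members by its brightest probe, at -0.05 ± 0.06 (SE, n = 4 pairs) with an SD between pairs of 0.058. Its other probes averaged 0.19 and 0.03 and were not steady, with SDs of 0.396 and 0.377. MSRA on chromosome 8, which repairs oxidised methionine, averaged 0.04 with an SD between pairs of 0.030, although its mean was -0.32 where Holstein carried Cy5 and 0.41 where Jersey did.

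Among the glutathione synthesis and recycling genes, none had an unadjusted p under 0.05. GCLM on chromosome 3, the regulatory subunit of the rate-limiting ligase, gave 0.51, 0.49, 0.49 and -0.49. Pairs 1 to 3 were nearly equal and higher in Holstein, and pair 4 was as far on the Jersey side. The mean of GCLM was 0.25 ± 0.19 (SE, n = 4 pairs), and 0.49 without pair 4. Its catalytic partner GCLC was too dim to be measured. GSS on chromosome 13, glutathione synthetase, averaged 0.06, and GSR on chromosome 27, the reductase that regenerates glutathione, averaged -0.30 ± 0.28 (SE, n = 4 pairs). The pairs of GSR were -0.38, -1.20, -0.24 and 0.61. Without pair 4 its mean was -0.61, and without pair 2 it was nearly 0.

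All 5 measured cytosolic and mitochondrial glutathione transferases averaged higher in Jersey, from -2.16 to -0.02, and the split was 4 to 1 with median centring and in the deposited value table. GSTO1 on chromosome 26 encodes an omega-class transferase that reduces dehydroascorbate to vitamin C and removes glutathione from proteins. Its log2 intensity in pairs 1 to 4 was 10.49, 10.07, 8.46 and 8.75 in Holstein embryos, against 11.47, 11.94, 11.43 and 11.58 in Jersey embryos. The breeds did not overlap. Jersey values varied little, and Holstein values were lower and spread over a wider range. Ratios of -0.98, -1.87, -2.97 and -2.83 averaged -2.16 ± 0.35 (SE, n = 4 pairs), 4.48-fold higher in Jersey and the same sign on 8 of 8 arrays.

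Only 8 of the 32129 probes had a larger mean difference in either direction than GSTO1, while 355 had a smaller p. The limma adjusted p of GSTO1 was 0.126 on pair means and 0.0033 with the pair as a random block. Its mean was -1.43 on slide 1 and -2.90 on slide 2. The limma adjusted p of that difference was 0.116 in a fit of the arrays taken singly, which leaves out the pairing. A second and dimmer GSTO1 probe gave -0.42, -0.41, -0.26 and 0.18, a mean of -0.23 ± 0.12 (SE, n = 4 pairs), so the 2 probes shared the direction in 3 pairs and differed widely in size. Probe sequences were not used here, so which transcripts each of them reads was not tested.

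GSTZ1 on chromosome 10, the zeta-class transferase that isomerises maleylacetoacetate in tyrosine breakdown, was also higher in Jersey. Its log2 intensity was 9.94, 8.81, 8.95 and 9.29 in Holstein embryos and 10.18, 9.94, 9.70 and 9.74 in Jersey embryos. Jersey was higher in each pair, and the ranges overlapped through Holstein pair 1. Ratios of -0.24, -1.13, -0.74 and -0.46 averaged -0.64 ± 0.16 (SE, n = 4 pairs), 1.56-fold higher in Jersey and the same sign on 8 of 8 arrays. The limma adjusted p was 0.2 on pair means and 0.0294 with the pair as a random block.

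GSTP1 on chromosome 29, the pi-class transferase, averaged -0.20 by its brightest probe and -0.38 and -0.30 by the other probes, so its 3 probes agreed in direction. GSTK1 on chromosome 4, the kappa-class enzyme of mitochondria and peroxisomes, averaged -0.14. GSTM1 on chromosome 3, a mu-class transferase, averaged -0.02 by its brightest probe, and its other probes averaged -0.22, -0.11 and 0.02. Mu-class genes are close copies of each other and the annotation lists more than one locus under this name, so the GSTM1 values are uncertain.

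The 3 microsomal glutathione transferases, membrane proteins related to leukotriene synthase, also averaged higher in Jersey, and MGST2 and MGST3 had the largest spread between pairs of all members. MGST3 on chromosome 3 had ratios of -0.07, -2.69, -0.98 and 0.30 and averaged -0.86 ± 0.51 (SE, n = 4 pairs). Its mean without pair 2 was -0.25. MGST2 on chromosome 17 had ratios of 0.09, 1.87, -0.89 and -1.19 and averaged -0.03 ± 0.52 (SE, n = 4 pairs). In pair 2 these 2 genes therefore stood far apart in opposite directions, MGST2 high in Holstein and MGST3 high in Jersey. The second MGST2 probe gave 0.44, 0.74, 0.69 and -0.27 and did not repeat the negative value of pair 3. It averaged 0.40, higher in Holstein. MGST1 on chromosome 5 averaged -0.04 with pairs between -0.27 and 0.24. With median centring 1 of the 3 genes averaged higher in Holstein, and with median foreground 2 did.

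NFE2L2 on chromosome 2 encodes NRF2, the activator of many of these genes. Its log2 intensity was 10.56, 11.21, 11.55 and 11.44 in Holstein embryos, against 10.43, 10.44, 11.03 and 11.09 in Jersey embryos. Holstein was higher in each pair, and the breeds overlapped because both were low in pair 1. Ratios of 0.13, 0.77, 0.52 and 0.36 averaged 0.45 ± 0.12 (SE, n = 4 pairs), 1.36-fold higher in Holstein, with a limma adjusted p of 0.216 on pair means and 0.209 with the pair as a random block. This difference appeared in 1 dye orientation, with a mean of 0.90 on arrays with Holstein in Cy5 and -0.01 on arrays with Jersey in Cy5. KEAP1 on chromosome 7, which marks NRF2 for degradation, was at 0.00 ± 0.09 (SE, n = 4 pairs).

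NQO1, a quinone reductase that NRF2 induces, was too dim, while HMOX1 and HMOX2 were measured. HMOX1 on chromosome 5, the inducible heme oxygenase and an NRF2 target, exceeded background on 0 of 8 arrays in Holstein and on 5 of 8 in Jersey. Ratios of -0.39, -1.35, -0.27 and -0.26 gave the same sign on 8 of 8 arrays. Mean log2 intensities were 6.69 ± 0.29 in Holstein embryos, which is not well above background, and 7.26 ± 0.39 in Jersey embryos (SD, n = 4 pairs). The limma adjusted p was 0.328. On these means HMOX1 was at least 1.46-fold higher in Jersey, a bound that does not hold for each pair or without pair 2. That bound sets the Jersey mean against the dimmest signal above background in each Holstein channel or the probe's own, whichever was higher. Without pair 2 the mean ratio was -0.31, against -0.57 with it. HMOX2 on chromosome 25, the constitutive oxygenase, averaged -0.21, with a mean of -0.54 on slide 1 and 0.13 on slide 2.

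The globin genes among the blood markers also differed between slides. HBG had a mean ratio of -4.03 on slide 1 and 0.15 on slide 2, HBB had -2.02 and 0.02, and HBA had -0.96 and -0.24. The limma adjusted p of the slide difference was 3.12e-05 for HBG, 0.0116 for HBB and 0.206 for HBA. This fit took the arrays singly, so both dye swaps of a pair counted as separate replicates. Its p-values, here and below, can therefore be too small. ALAS2, the erythroid enzyme of heme synthesis, went the other way, at 0.06 on slide 1 and -1.30 on slide 2, and AHSP, SLC4A1 and EPB42 lay between -0.04 and 0.23 on both slides. Of 9 erythrocyte markers on the array these 7 were measured, with a median of 0.04 on slide 1 and 0.02 on slide 2 and a summed log2 intensity of 10.4 to 10.7 in Holstein embryos and 10.9 to 12.5 in Jersey embryos, and HBE1 and HEMGN were too dim in nearly all channels. TXNIP and HMOX2 were also lower in Holstein mainly on slide 1, while GSTO1 differed more on slide 2. The part of blood RNA in these members was not tested. After adjustment, limma found a breed effect that differed between slides for 0 of 37 members, against 0.0749% of all probes. At an unadjusted p under 0.05 it did so for 7 of the 37, against 8.97% of all probes. Besides TXNIP, HMOX2 and GSTO1 these were GSR (-0.79 on slide 1 and 0.18 on slide 2), HMOX1 (-0.87 and -0.26), MGST1 (0.18 and -0.27) and MGST2 (0.98 and -1.04).

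The products of 7 measured members work mainly in the endoplasmic reticulum: PRDX4, GPX8, the 3 microsomal transferases and both heme oxygenases. All 7 averaged higher in Jersey, a direction found for 47.3% of named genes, with a median of -0.23. MGST1 and MGST2 averaged close to 0, at -0.04 and -0.03. These genes and HMOX2 were higher in Jersey in 2 of 4 pairs, and the second MGST2 probe averaged 0.40, higher in Holstein. HMOX1 and GPX8 passed the filter through Jersey alone, and the median of the other 5 was -0.21. The split was 6 to 1 with median centring and 5 to 2 with median foreground. Of the 7 mitochondrial members, SOD2 and PRDX3 averaged higher in Holstein and TXN2, TXNRD2, GLRX2, PRDX5 and GSTK1 higher in Jersey. Cytosolic members were divided, with 9 higher in Holstein and 11 higher in Jersey. These compartments were assigned after the values were known and no test was made of them.

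In many of these genes the pairs stood far apart while the dye swaps within a pair agreed. The pairs were chosen as the arrays that agreed best over the measured probes, so such agreement was favoured in advance. The SD between pairs exceeded 0.5 on the log2 scale in 12 of 37 members (32.4%), against 12.98% of named genes, and its median was 0.285, against 0.225. That limit was set after the values were seen. The named genes include those that passed the filter in 1 breed alone, and no share for genes of similar brightness is given here. The widest members were MGST2 (SD 1.38), MGST3 (1.33), SOD1 (1.20), PRDX1 (1.09) and SRXN1 (1.06). Once the mean dye effect was removed, the arrays of a pair lay on average within 0.029 of their mean for MGST2 and within 0.070 for PRDX1. For SRXN1, SOD1 and MGST3 this distance was larger, at 0.088, 0.091 and 0.187.

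**Figure D3:**
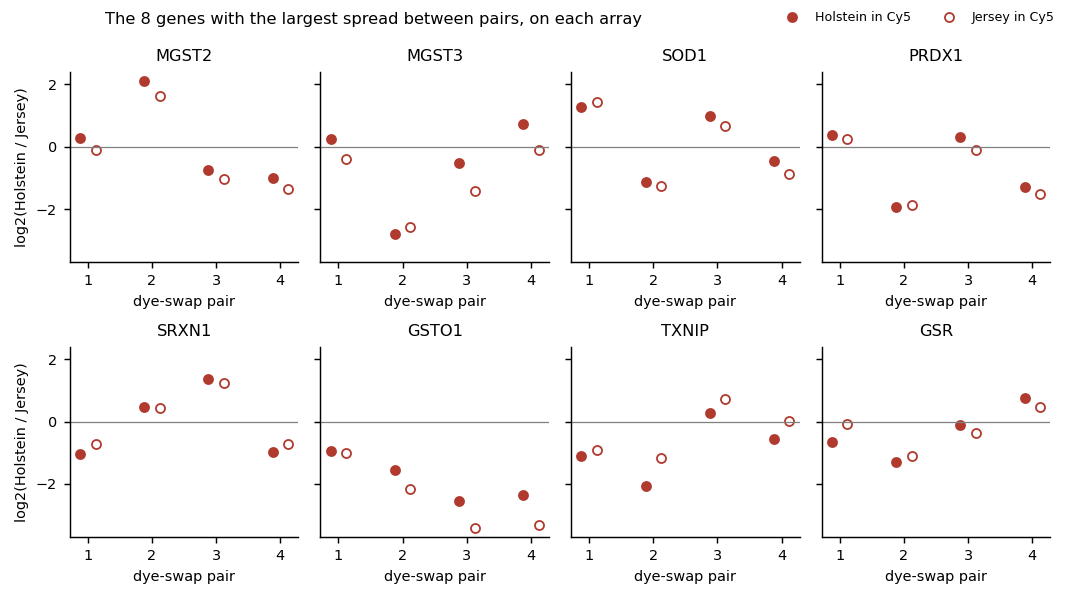
Log2(Holstein / Jersey) on each of the 8 arrays for the 8 genes with the largest spread between pairs, with filled points for Holstein in Cy5 and open points for Jersey in Cy5. The dye swaps of a pair lie close together for MGST2, SOD1, PRDX1 and SRXN1 while the pairs differ in sign, and all 8 points of GSTO1 lie below 0.

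Some lineage markers swung between pairs in a similar way. NANOG, a marker of the inner cell mass, had ratios of 1.97, -1.58, 2.12 and -0.92, the same signs as SOD1. HNF4A, listed as a primitive endoderm marker, had 0.29, -1.68, 0.35 and -2.47, and IFNT, the interferon secreted by trophectoderm, had 0.29, -1.42, 1.01 and -2.30, the same signs as SOD1 and PRDX1. These markers were picked after their values were seen, and others of the same lists went other ways. POU5F1, of the inner cell mass list, had -0.64, 0.23, -0.60 and 0.09, opposite in sign to NANOG in every pair. Of the primitive endoderm list, PDGFRA was above 0 and SPARC below 0 in all 4 pairs. GATA2, of the trophectoderm list, had 0.39, 0.57, 0.67 and -0.45. All 9 inner cell mass markers on the array were measured, with medians of -0.12, -0.28, -0.25 and 0.09 in the 4 pairs and a summed log2 intensity of 14.7 to 15.2 in Holstein embryos and 14.7 to 15.3 in Jersey embryos. All 13 trophectoderm markers were measured, with medians of 0.00, 0.22, 0.23 and -0.25 and sums of 16.7 to 17.2 in Holstein embryos and 16.9 to 17.0 in Jersey embryos. Of 7 primitive endoderm markers 6 were measured, with medians of 0.23, -0.32, 0.15 and 0.29 and sums of 13.7 to 14.9 in Holstein embryos and 14.03 to 14.64 in Jersey embryos, and FOXA2 was above background on no array. The part of stage or cell make-up in the members' spread was not tested.

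The samples carried markers of the labelled embryo, with POU5F1, NANOG, KRT8, KRT18, TFAP2C and GATA2 above background in both breeds on 8 of 8 arrays. Others of these lists were dimmer. CDX2 was above background on 7 of 8 arrays in Holstein and 8 in Jersey, SOX2 on 6 in each breed, and EOMES on 1 in Holstein and 5 in Jersey. Of 11 leukocyte markers on the array 6 were measured, with a summed log2 intensity of 11.4 to 11.9 in Holstein embryos and 11.7 to 12.2 in Jersey embryos. PTPRC, CD48 and CD68 were above background in both breeds on 8 of 8 arrays, LYZ1, CD3E and CD14 on some, and ITGB2, TYROBP and CD79A on 0 of 8. CD68 had a mean ratio of -1.29 on slide 1 and 0.45 on slide 2. The limma adjusted p of that difference was 0.0136 in the fit of the arrays taken singly. The part of leukocyte RNA in the members was not tested. The 7 measured cumulus and granulosa markers summed to 11.9 to 12.3 in Holstein embryos and 11.9 to 12.5 in Jersey embryos. CYP19A1 and INHBA were higher in Holstein on 8 of 8 arrays, and NR5A2 was higher in Jersey on 7 of 8. Uterine and oviduct markers summed to 10.4 to 10.7 and 10.3 to 10.7, and sperm markers to 9.1 to 9.7 and 9.1 to 9.3. Their part in the members was not tested either. Of the 37 members measured, 28 exceeded background in both breeds on all arrays. Among the members 6 had a dye effect that passed the adjusted threshold in limma, GSTP1, MSRA, PRDX2, SOD3, TXN2 and TXNRD2, against 16.9% of all probes. In each of the 6 the ratio was lower where Holstein carried Cy5. None of these dye effects passed with median foreground.

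Where a gene had more than 1 measured probe, direction was mostly shared for the larger differences. The probes of TXN2, GSTP1 and PRDX5 all averaged below 0, and the SOD1 probes matched pair by pair. GSTO1 and MGST2 were the members whose probes differed most in size.

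**Figure D4:**
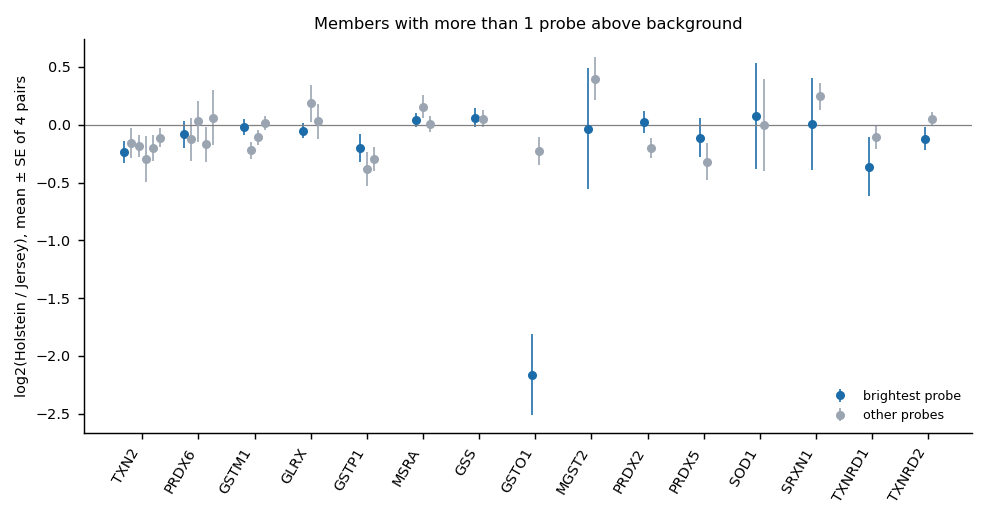
Log2(Holstein / Jersey), mean with its moderated SE over 4 pairs, for the 15 genes with more than 1 measured probe, with the brightest probe in blue and the others in grey. All 6 probes of TXN2 and all 3 of GSTP1 lie below 0, and the 2 probes of GSTO1 stand at -2.16 and -0.23.

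A wider list of 140 redox genes was looked at beside the members, of which 128 were on the array and 107 measured. They averaged higher in Holstein in 56 cases and in Jersey in 51, with a median of 0.01. Before adjustment 11 genes higher in Holstein and 6 higher in Jersey had a p under 0.05, which is 15.9% of those measured and the same share as among named genes. In the random-block fit 3 passed in each direction. The further thioredoxin-fold and methionine repair genes were higher in Holstein in 16 of 22 cases, the further glutathione enzymes in 12 of 22, the suppliers of NADPH in 4 of 9 and the further NRF2 regulators and targets in 9 of 21. The last of these 4 lists held 1 gene with an unadjusted p under 0.05 that was higher in Holstein and 2 that were higher in Jersey.

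Of the wider list, MAOB, the X-linked monoamine oxidase B that releases hydrogen peroxide, had the smallest p. Its ratios of -0.89, -0.88, -0.69 and -0.79 averaged -0.81 ± 0.07 (SE, n = 4 pairs), with a limma adjusted p of 0.0737 on pair means and 0.0041 with the pair as a random block. Jersey was higher on 8 of 8 arrays, with a mean of -0.46 where Holstein carried Cy5 and -1.16 where Jersey did. XIST, whose values stand above, was higher in Jersey in the same pairs. ERO1A, the oxidase that drives disulfide formation in the endoplasmic reticulum and makes the peroxide that PRDX4 reduces, was on the opposite side, at 0.79, 0.98, 0.44 and 0.62. Its mean was 0.71 ± 0.11 (SE, n = 4 pairs), 1.63-fold higher in Holstein, with a limma adjusted p of 0.117 on pair means and 0.0183 with the pair as a random block.

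ABCC2, an exporter of glutathione conjugates, averaged -0.75 ± 0.12, and SLC3A2, the heavy chain of the cystine importer, averaged -0.36 ± 0.08, both higher in Jersey in every pair. The carbonyl reductase CBR3 averaged -0.54 ± 0.14, and PGD, which makes NADPH in the pentose phosphate pathway, averaged -0.46 ± 0.13. A second and dimmer CBR3 probe averaged -0.05. Higher in Holstein in every pair were TMX2, a thioredoxin-related membrane protein (0.47 ± 0.10), and CUL3, the ligase scaffold that works with KEAP1 (0.34 ± 0.08). The same held for GLO1, which clears methylglyoxal with glutathione (0.60 ± 0.14), and for ME2, the mitochondrial malic enzyme (0.48 ± 0.12), with SE over 4 pairs for each. The limma adjusted p of these 8 genes lay between 0.125 and 0.239.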

How the data were processed

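Transcript levels were measured on 8 two-colour arrays. The deposited scanner files hold raw foreground and local background intensity per spot, per the file headers, and a column of the kind other, a mark for spots ignored at quantification. The deposited value table holds log2 ratios whose steps the authors do not state; it correlated with Holstein over Jersey at -0.99 to -0.98, so its direction is Jersey over Holstein, and it served as an alternative. Scanner and software are not given in the sources used here.

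With limma 3.58.1 (R 4.3.3), normexp (offset 50) corrected the mean foreground and loess normalized it within arrays, with control and ignored spots at weight 0. Probes counted as measured if 1 breed's channel was brighter than the 153 negative controls by 2 SD over their mean on 4 or more of 8 arrays, which left out 11665 of 43794. Log2 intensity per breed came from the same arrays after Aquantile scaling. Names and chromosomes come from the platform annotation and RefSeq (ARS-UCD2.0), with 20068 of 21790 named probes matched by symbol and 1722 by synonym. Precision is limited by the number of arrays.

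The labels do not name the dye-swap pairs. Of 24 matchings of opposite orientations, that with the highest sum of residual correlations was taken (0.46 to 0.71 within pairs, -0.36 to -0.02 otherwise). A choice made this way does not test the pairing. limma's lmFit and eBayes tested pair means against 0, and p-values of 32129 probes were adjusted together by Benjamini-Hochberg at 0.05. The random-block fit covered 32033 probes, with a consensus correlation of 0.31. Slide difference and dye effect were fitted on the 8 arrays taken singly. The pairing was left out of these fits, so p-values of the slide difference can be too small. The pair means were also tested on simulated data.

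Members and lists were chosen with earlier results of these data known. Values in every pair are given for members with an unadjusted p under 0.05, which include SOD2, NFE2L2 and PRDX4, named earlier, and for other members as values or ranges; of the wider lists the 10 smallest p are named. Genes outside this rule were chosen after their values were seen. Alternatives covered background, normalization, filter, pairing, slide, variance prior, value source, threshold, probe choice and each pair left out.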

Additional observations from a re-analysis of the deposited data

Results flagged for a closer look

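In 4 of the 37 measured genes, 1 pair stood far from the other 3 by Dixon's test of the gap to the nearest pair over the whole range. Chance alone marks about 1 gene in 20. The share of all named genes that this rule marks is not given here, so the 4 genes are not read as an excess. The log2(Holstein / Jersey) of GCLM was -0.489 in pair 4, with the other pairs between 0.49 and 0.51. GPX1 stood at 0.470 in pair 3, with the others between -0.14 and -0.03. HMOX1, not well above background in Holstein, stood at -1.35 in pair 2, with the others between -0.39 and -0.26. TXN stood at -0.753 in pair 2, with the others between 0.25 and 0.39.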

How the results depend on the processing

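The count of probes past the adjusted threshold was 0 on pair means, 1209 with the pair as a random block, 2054 with the 8 arrays taken singly, 70 with median foreground, 48 when only probes above background on all arrays were kept, and 0 to 2 when 1 pair was left out, the 2 without pair 4. The 9 genes with an unadjusted p under 0.05 became 5 with median foreground, with probes above background on all arrays, and with a variance prior with trend and robust fitting. With a filter passed by both breeds, chosen after seeing the data, they became 7. They became 3 at a threshold of 0.01 and 5 to 8 when 1 pair was left out, the 5 without pair 1. The median of -0.08 became 0.0098 with median centring and lay between -0.120 and -0.0324 when 1 pair was left out, the last without pair 4. The dye effect, found for 6 genes, was found for 0 with median foreground. The causes were not tested.

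None of the 9 genes changed sign in up to 22 settings, but several of these could not change a gene's mean ratio. These were the random block, the arrays taken singly, the slide term, the variance prior and Aquantile scaling between arrays. The filter settings could change it only through the choice of probe. GSTO1 lay between -2.90 and -1.19, SOD2 between 0.40 and 0.79, GSTZ1 between -0.78 and -0.48, PRDX4 between -1.03 and -0.47, NFE2L2 between 0.34 and 0.57, PRDX3 between 0.19 and 0.45, TXN2 between -0.30 and -0.13, HMOX1 between -0.87 and -0.26, and CAT between 0.02 and 0.32. GSTO1, SOD2 and GSTZ1 passed the adjusted threshold of limma in 2 of these settings, the random block and the arrays singly, and PRDX4 in the second alone, with an adjusted p of 0.0445. Pairing neighbouring arrays by area number gives the same pairs and was not run again.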

Other observations

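Selenoprotein genes outside the defence enzymes were divided between the breeds. Of 16 measured genes for selenoprotein synthesis and other selenoproteins, 8 had a positive mean and 8 a negative one, around a median of 0.01, and 1 of them, SECISBP2, which reads the selenocysteine signal in mRNA, had an unadjusted p under 0.05 in limma (0.20 ± 0.07, SE, n = 4 pairs). SELENOP, the secreted selenium carrier, was singled out after its values were seen. Its log2(Holstein / Jersey) was 1.21, 1.24, 2.00 and -2.18 in pairs 1 to 4, so pair 4 opposed the other pairs. The trophectoderm factor TFAP2A, at 1.57, 3.02, 1.95 and -2.56, and the prostaglandin synthase PTGS2, at 1.43, 1.45, 2.51 and -1.75, also had pair 4 alone below 0.

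Of the 4 measured metallothioneins, small zinc-binding proteins, 1 averaged higher in Holstein and 3 in Jersey, and none had an unadjusted p under 0.05 in limma. MT1A, the gene higher in Holstein, gave -0.37, 0.16, 0.73 and 0.97. Among the 13 measured producers of superoxide and hydrogen peroxide, 6 averaged higher in Holstein and 7 in Jersey, with 2 and 1 at an unadjusted p under 0.05.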
